A study of Mus musculus with 8 samples.

Results

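Gastrocnemius, the large calf muscle, of 30 month old mice was compared with that of 3 month old mice across all expressed genes. The libraries were chosen by their labelled age, 2 of 30 months and 2 of 3 months, which are 4 of the 8 libraries of the study. All mice were of the strain C57BL/6, given without a substrain, and no treatment is named. RNA of the whole muscle was sequenced and counted per gene, and the remaining libraries, 2 of 12 months and 2 of 24 months, helped to estimate the spread and show when a difference arose. Whether an age's 2 libraries stand for 2 animals is not stated in the labels. Every p-value below therefore measures only the spread between libraries, which may be technical.

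Skeletal muscle is built of slow fibres, which carry the myosin heavy chain Myh7 and live on oxidation, and of fast fibres, which carry Myh2, Myh1 or Myh4. In old age muscle loses mass and nerve contacts. Fibres that lose their nerve switch on receptors, channels and transcription factors that are otherwise kept to the synapse or to development, and fibres that regain a nerve can change type. Resident macrophages, fibroadipogenic cells and capillaries share the tissue, and in RNA of the whole muscle fewer cells of a type and less RNA per cell cannot be told apart.

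The 3 month libraries held 42404254 and 56705929 counts, the 30 month ones 47801556 and 47119535. Levels are counts per 1000000 counts of the scaled library (CPM). Before that scaling, 3 counts correspond to 0.0529 to 0.0707 CPM in these libraries. Replicates of an age correlated across genes at 0.995 for 3 months and 0.990 for 30 months, yet differed beyond counting noise, their chi-square being 32.1 and 77.3 for each degree of freedom. Markers of muscle fibres led every library, and Ttn, the giant sarcomere protein, took 15.8% to 16.5% of the counts in these 4. Kidney transcripts were present unevenly. The summed level of 12 kidney genes was 39.5 and 14.0 CPM at 3 months and then 0.769 and 3.87 CPM at 30 months, and only 1 of 10 tested members had a positive log2 fold change. The kidney sum also divided the later libraries, with 1 library of each later age above 1 CPM and 1 below. A fit with that division as a term, chosen after seeing the data, is given beside the main one and is called here the fit with the library set.

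Old muscle differed from young muscle in a small set of genes. The called genes were divided into 2 kinds, those that had covered at least 80% of their log2 difference by 12 months and those that were part way. Of 19571 tested genes, 29 (0.148%) had an edgeR quasi-likelihood adjusted p below 0.05, of which 24 rose (0.123%) and 5 fell (0.0255%). The median log2 fold change of all tested genes was 0.01, 51.4% were positive, and 8.52% had an unadjusted p under 0.05. Once the library set was a term 416 genes passed (2.13%), 290 of them higher (1.48%) and 126 lower (0.644%), and all 29 were among them. Counts given below for gene lists are to be set against these shares of all tested genes.

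Several large changes lay in a stretch of the mitochondrial genome and in its copy on chromosome 1. The gene mt-Nd3 encodes a subunit of complex I, the enzyme that passes electrons from NADH into the respiratory chain. Its copy, the pseudogene Gm28438, was identical at 344 of 345 aligned bases. The single difference was T3C, counted from the first base of the gene, which is T9461C on the mitochondrial genome. The gene is 348 bases long and the copy 345, so 3 bases of the gene have no partner. The first 60 bases of both are shown for the base that differs within the aligned stretch, which is in capitals. They come from the GENCODE M21 transcripts on GRCm38, at MT:9459-9518 on the plus strand and at chr1:24613060-24613119 on the minus strand.
mt-Nd3: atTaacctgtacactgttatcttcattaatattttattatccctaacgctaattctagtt
Gm28438: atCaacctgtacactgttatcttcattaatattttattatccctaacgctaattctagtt
The level of mt-Nd3 was 0.605 and 0.408 CPM at 3 months and then 16.4 and 13.8 CPM at 30 months. The copy was the mirror image, at 22.4 and 19.6 CPM and then 0.527 and 0.470 CPM. The ages did not overlap for either gene. The gene rose by 4.90 on the log2 scale (SE 0.24) and the copy fell by 5.39 (SE 0.26), each at adjusted p = 4.03e-05 (edgeR's quasi-likelihood test). Summed, the pair stood at 22.96 and 19.97 CPM at 3 months and then at 16.9 and 14.29 CPM at 30 months. The gene held 2.63% and 2.04% of that sum in the young libraries, 96.9% and 96.7% in the old ones, and 95.6% to 97.5% in the 4 libraries between.

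The neighbours of mt-Nd3 moved with it. The glycine tRNA gene mt-Tg (MT:9391-9458), which ends 1 base before mt-Nd3, had no count at 3 months and 2.33 and 2.16 CPM at 30 months. Set against a floor of 3 counts, taken as 0.0707 CPM before scaling, it was at least 31.8-fold higher (adjusted p = 0.000675, edgeR). The complex I gene mt-Nd4l was at 0.0648 and 0.167 CPM and then 2.26 and 1.79 CPM, a rise of 4.06 (SE 0.55, adjusted p = 0.0358, edgeR), and overlaps mt-Nd4. Its copy Gm10222, identical at 294 of 294 bases, fell by 4.61 (SE 0.55). The arginine tRNA gene mt-Tr, between the 2, had a log2 fold change of 4.16 that missed the threshold (adjusted p = 0.0605, edgeR). Upstream, mt-Co3, a subunit of cytochrome oxidase, and its identical copy Gm28437 had log2 fold changes of 0.69 and -1.50, with adjusted p-values of 0.284 and 0.132 in edgeR. The share of that pair read as mt-Co3 was 28.4% and 29.1% at 3 months and 52.1% to 66.6% in all later libraries. Elsewhere on the mitochondrial genome nothing of the kind was seen, for of 31 tested genes 3 were called, and the 7 protein genes above 100 CPM had log2 fold changes between -0.40 and -0.01. No source used here states how reads with several matches were counted, so the level of a gene and its copy is uncertain.

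**Figure D1:**
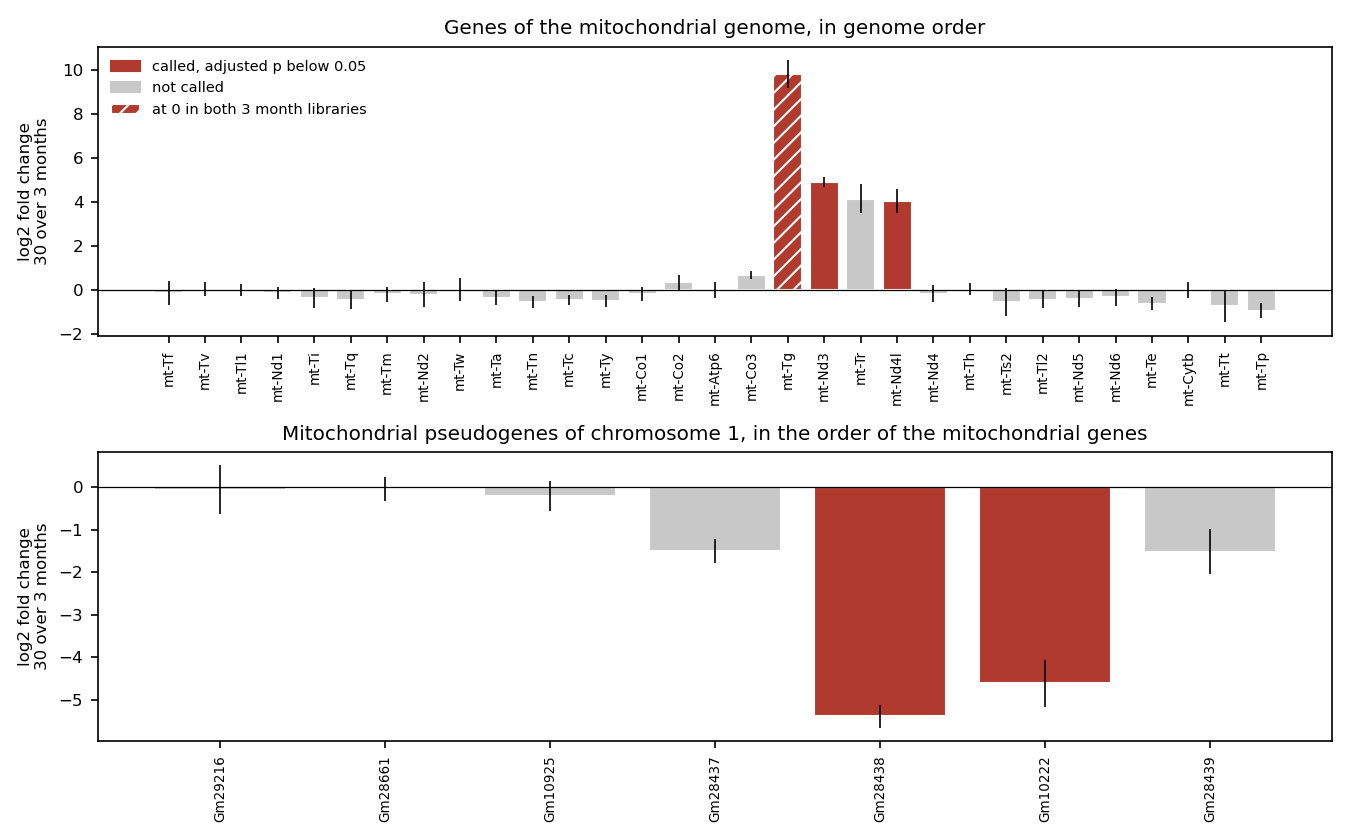
Log2 fold change of 30 over 3 months (bars, with SE as lines) for 31 mitochondrial genes in genome order above and 7 pseudogenes of chromosome 1 below, with called genes in red. The stretch from mt-Tg to mt-Nd4l was higher and the pseudogenes Gm28438 and Gm10222 were lower, and the hatched bar of mt-Tg depends on the prior count because both 3 month libraries were at 0.

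The base that separates mt-Nd3 from its copy is among those reported to differ between C57BL/6 substrains, and other genes reported to do so were read out as well. Of a list of 9, 7 were tested, 1 rose (mt-Nd3) and 1 fell (Wdfy1). Wdfy1, which encodes an endosomal adaptor protein, was at 18.4 and 19.1 CPM at 3 months and then 8.28 and 7.67 CPM at 30 months, and fell by 1.23 (SE 0.15, adjusted p = 0.0201, edgeR). Its 4 libraries of 12 and 24 months, at 7.72 to 8.86 CPM, were already at the old level. It overlaps Mrpl44. Nnt, the mitochondrial transhydrogenase that carries a deletion in C57BL/6J, was at 155 and 126 CPM at 3 months, 40.2 to 58.6 CPM at 12 and 24 months, then 48.5 and 89.3 CPM at 30 months. The ages did not overlap, and the log2 fold change of -1.03 did not pass (SE 0.26, adjusted p = 0.249, edgeR). Cyfip2, a regulator of actin branching with a known C57BL/6N allele, was at 5.42 and 3.28 CPM at 3 months. It was at 12.7 and 7.68 CPM at 12 months, 20.7 and 17.5 CPM at 24, and 20.1 and 37.7 CPM at 30 months. Its log2 fold change of 2.74 just missed the threshold (SE 0.38, adjusted p = 0.0526, edgeR) and was 2.99 once the library set was a term (adjusted p = 0.000866, edgeR). Ide, the insulin-degrading enzyme, stood at 113 and 113 CPM and then 180 and 111 CPM, so its libraries overlapped. Entpd4 and Entpd4b were under 1 CPM throughout, with adjusted p-values of 0.582 and 0.836 in edgeR. The labels give no substrain, so for genes whose 3 month libraries stand apart from all 6 later ones substrain and age cannot be told apart.

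The 29 called genes divided into 11 that had covered at least 80% of their log2 difference by 12 months and 18 that were part way, measured on means of CPM plus 0.1. Beside mt-Nd3, mt-Tg, mt-Nd4l, Gm28438, Gm10222 and Wdfy1, the early group held Gm15446, Hist1h4m, Kl, Tmem132b and Ighg2c. Gm15446, a predicted zinc finger gene, was at 0.346 and 0.445 CPM at 3 months and then at 4.84 to 7.15 CPM in every later library. Hist1h4m, 1 of the histone H4 genes, was at 0.130 and 0.0927 CPM and then 2.04 and 4.15 CPM, and rose by 4.79 (SE 0.63, adjusted p = 0.0387, edgeR). Its near-identical relative Hist1h4n, which matches it at 401 of 402 bases, went the opposite way, from 10.5 and 11.8 CPM to 1.56 and 2.93 CPM, and passed in the fit with the library set (-1.99, SE 0.19, adjusted p = 0.000519, edgeR). As with mt-Nd3, the share of the pair read as Hist1h4m was 1.22% and 0.78% in the young libraries and 47.6% to 58.6% in all later ones. Kl, which encodes klotho, a hormone co-receptor of kidney tubules, fell from 1.60 and 1.00 CPM to 0.176 and 0.188 CPM, alongside the kidney transcripts described above. Whether those account for it was not tested.

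Tmem132b, a membrane protein gene, was at 6.03 and 5.25 CPM at 3 months, 16.1 to 19.5 CPM at 12 and 24 months, then 20.4 and 12.6 CPM at 30 months. It rose by 1.55 (SE 0.22, adjusted p = 0.0473, edgeR) and passed in 1 of the 8 fits that leave out a library. The antibody constant region gene Ighg2c, transcribed by plasma cells, was at 0.605 and 0.482 CPM and then 13.6 and 6.11 CPM, a rise of 4.18 (SE 0.56, adjusted p = 0.0473, edgeR). At 12 and 24 months it ranged from 6.04 to 13.2 CPM, so its 3 month libraries stood apart from all later ones.

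**Figure D2:**
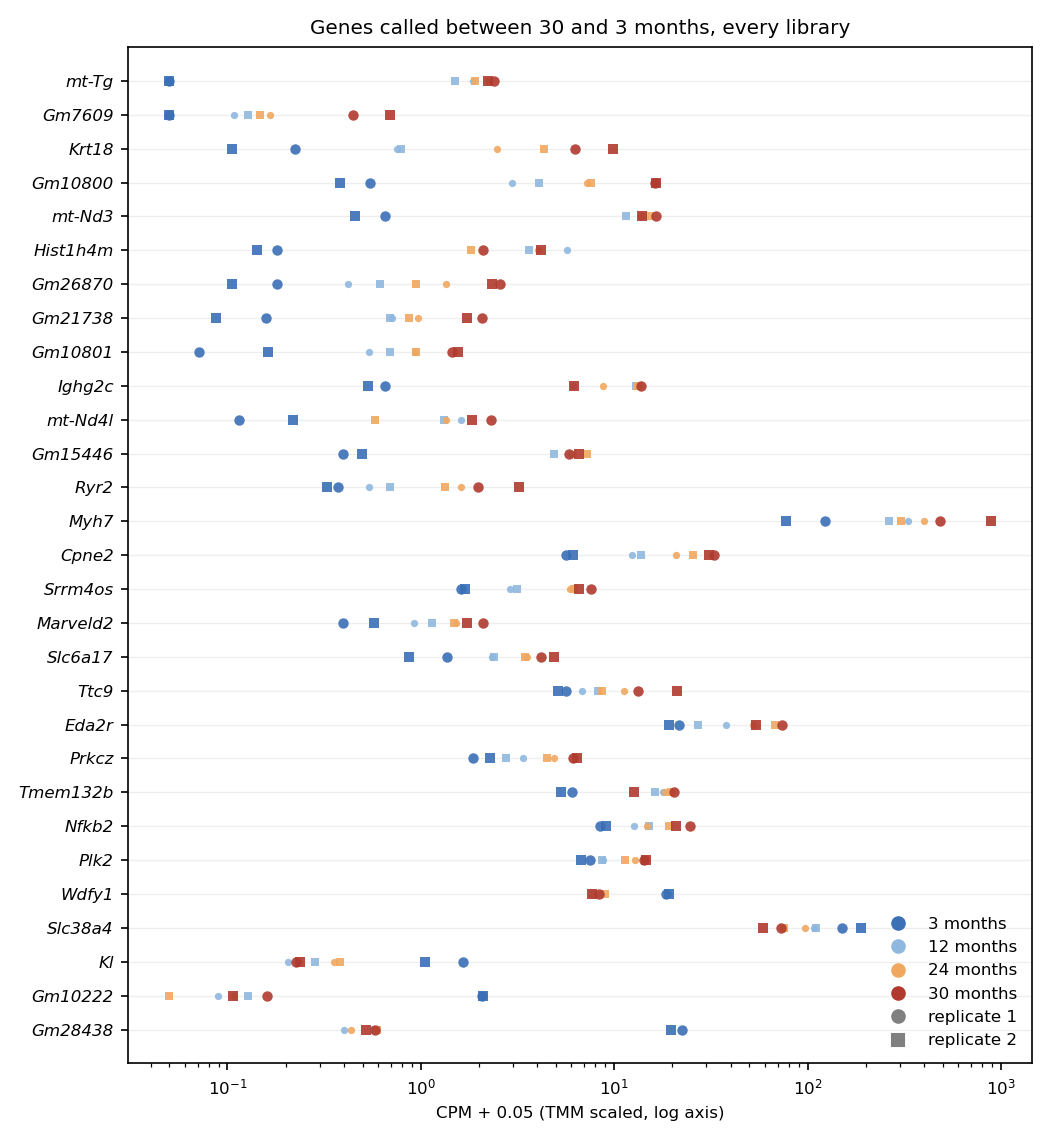
CPM of the 29 called genes in all 8 libraries, on a log axis with 0.05 added, coloured by age, with circles for replicate 1 and squares for replicate 2. The dark blue and dark red symbols, 3 and 30 months, are separate for all 29, and the paler ages lie between them for genes such as Krt18 and Cpne2 and beside the old ones for mt-Nd3 and Gm15446.

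Cpne2 and Krt18 were among the genes that moved further at each age. Cpne2, a copine that binds membranes when calcium rises, was at 5.55 and 6.08 CPM at 3 months, 12.3 and 13.6 at 12, 20.8 and 25.6 at 24, and 32.9 and 30.9 CPM at 30 months. Both libraries of each age lay above both of the age before, and 47.0% of the change had occurred by 12 months. It rose 5.48-fold (log2 2.45, SE 0.16, edgeR adjusted p 0.000296). That log2 fold change ranged from 2.39 to 2.52 when any single library was left out. The other 5 tested copines did not pass, and Cpne3, the most abundant of them, was at 24.4 and 24.8 CPM and then 23.6 and 22.6 CPM. Krt18, a keratin of simple epithelia that denervated muscle also makes, was at 0.173 and 0.0556 CPM, then 0.701 and 0.741, 2.43 and 4.27, and at last 6.20 and 9.76 CPM. It reached 37.0% of its log2 change by 12 months and 76.6% by 24 months.

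In all, 15 of the 29 genes had both libraries of every age beyond both of the age before, against 62 of all tested genes (0.317%). The call itself used the ends of that order, so the 2 shares are not independent. Of the 15, 14 rose and 1, Slc38a4, fell. Slc38a4, a transporter of neutral amino acids, went from 149.8 and 189 CPM to 108 and 110, 97.2 and 75.5, and 72.7 and 58.5 CPM (-1.37, SE 0.20, edgeR adjusted p 0.0473). Slc38a4 passed in 1 of the 8 fits that leave out a library, with log2 fold changes between -1.535 and -1.188. Its relative Slc38a2 was at 166 and 163 CPM and then 89.5 and 108 CPM, without overlap, but did not pass (-0.74, adjusted p = 0.223, edgeR). Among the risers were Ryr2, the calcium release channel of heart, at 0.324 and 0.278 CPM and then 1.93 and 3.16 CPM, and the atypical protein kinase C gene Prkcz, at 1.81 and 2.23 CPM and then 6.08 and 6.37 CPM. Their log2 fold changes were 3.08 (SE 0.36) and 1.62 (SE 0.21). Slc6a17, a transporter of synaptic vesicles, rose by 2.07 (SE 0.26), the tight junction gene Marveld2 by 2.09 (SE 0.31) and Ttc9 by 1.68 (SE 0.25). Srrm4os, antisense to the splicing factor gene Srrm4, was at 1.56 and 1.65 CPM and then 7.56 and 6.49 CPM, up by 2.13 (SE 0.19, edgeR adjusted p 0.00293). Srrm4 itself was at 0.518 and 0.686 CPM and then 1.12 and 1.69 CPM, and since no source used here states whether counting used strand, reads of overlapping genes may be mixed.

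Repeat-derived transcripts belonged to the same gradual group. Gm10800 (chromosome 2), a predicted gene in satellite-like repeat sequence, was at 0.497 and 0.334 CPM at 3 months, 2.92 and 4.06 at 12, 7.22 and 7.56 at 24, and 16.2 and 16.3 CPM at 30 months. Gm10801 beside it, Gm21738 on chromosome 14 and Gm26870 on chromosome 9 followed the same order with log2 fold changes of 4.35, 4.67 and 4.69. These 4 share repeat sequence and need not be independent signals. Gm7609, a transcribed pseudogene on chromosome 1, had no count at 3 months and 0.395 and 0.639 CPM at 30 months. It was at least 7.32-fold higher against the floor of 3 counts before scaling. Mitochondrial, copy and satellite-like genes were 9 of the 29 calls. Without such genes in the test 6 calls were left, so 14 other called genes also lost their call.

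**Figure D3:**
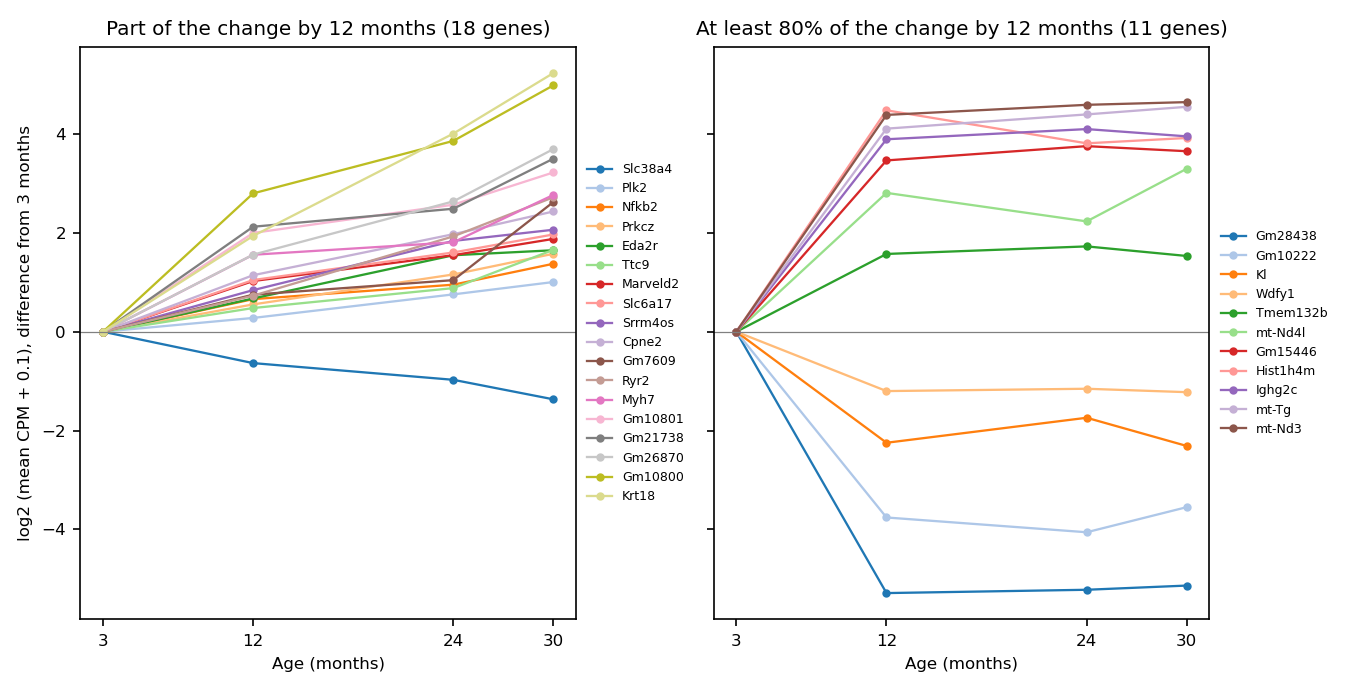
Log2 of mean CPM plus 0.1 at each age in months, as the difference from 3 months, for the 18 called genes that were part way at 12 months (left) and the 11 that had covered at least 80% (right). Lines on the left climb to 30 months, as Krt18 does, except that Slc38a4 falls and Eda2r is nearly flat after 24 months. On the right mt-Nd3 is nearly flat after 12 months and mt-Nd4l, Kl and Hist1h4m are not.

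Slow fibre genes were higher in old muscle. All 13 tested members of the slow fibre list were on the positive side, 12 did not overlap between the ages against 21.1% of all tested genes on that side, and the median was 1.45 against 0.01 for all genes. The median difference from 3 months was 0.93 in replicate 1 of 30 months and 1.56 in replicate 2, and all 13 were higher in replicate 2. Myh7 was at 124 and 77.0 CPM at 3 months and then 482 and 887 CPM at 30 months, and was the 1 member that passed, with a rise of 2.77 (SE 0.35, edgeR adjusted p 0.0280). It passed in 4 of the 8 fits that leave out a library, and its log2 fold change stayed between 2.27 and 3.15. The slow troponin gene Tnnt1 was at 50.8 and 23.2 CPM and then 146 and 213 CPM. The pump Atp2a2, which returns calcium to the store in slow fibres and heart, was at 151 and 140 CPM and then 276 and 531 CPM. Myh7b went from 3.74 and 2.24 CPM to 7.36 and 8.97 CPM. These 3 did not overlap between ages, and missed the threshold (adjusted p 0.0663, 0.146 and 0.149, edgeR). Once the library set was a term 7 of the 13 passed, against 2.13% of all tested genes. Summed heart markers, which could share these genes, were at 3.85 and 3.19 CPM and then 4.66 and 9.42 CPM, and their part in the result was not tested.

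Read per length, Myh7 made up 0.192% and 0.0722% of the 4 adult myosin heavy chains at 3 months, and 0.497% and 1.43% at 30 months. Myh4, of the fastest fibres, made up 86.5% and 92.4% and then 92.1% and 70.8%, so slow myosin remained a small part of the total at both ages. The fast myosins set the 2 old libraries apart. Myh2 was 3.28% of the sum in replicate 1 of 30 months and 12.7% in replicate 2, against 6.15% and 3.15% at 3 months, and Myh1 was 4.16% and 15.1% against 7.12% and 4.39%. Their log2 fold changes of 0.60 and 0.53 had adjusted p-values of 0.738 and 0.804 (edgeR) and turned to -0.20 and -0.20 without replicate 2 of 30 months. In the fast fibre list 12 of 15 were negative, the median was -0.10 and 0 passed in edgeR or DESeq2, with 0 at an unadjusted p under 0.05. The median difference was 0.06 in replicate 1 of 30 months and -0.57 in replicate 2. Myoz1, which anchors calcineurin at the Z disc of fast fibres, was at 1676 and 1918 CPM and then 1483 and 1006 CPM, without overlap.

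Genes of the response to loss of nerve also lay mostly higher. Of 24 tested denervation genes, 22 were positive, 15 did not overlap on the higher side (21.1% of all tested genes) and 1 on the lower (20.2%), and the median log2 fold change was 0.90. The median difference from 3 months was 0.48 in replicate 1 of 30 months and 1.13 in replicate 2, and 20 of the 24 were higher in replicate 2. Krt18 rose, and 12 members passed once the library set was a term (2.13% of all tested genes). Krt8, the partner keratin of Krt18, was at 0.0864 and 0.130 CPM and then 0.857 and 2.27 CPM. The AMP deaminase gene Ampd3, which muscle raises in wasting, was at 11.4 and 10.5 CPM and then 19.97 and 21.3 CPM. Both narrowly missed the threshold (adjusted p = 0.0568 for each, edgeR). Runx1, a transcription factor that protects denervated fibres, was at 5.66 and 6.42 CPM and then 13.9 and 16.3 CPM, with an adjusted p of 0.0895 in edgeR, and passed once the library set was a term (1.52, SE 0.16, adjusted p = 0.00101, edgeR).

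Of 19 tested genes of the neuromuscular junction, 15 were positive with a median of 0.15, 7 did not overlap on the higher side (21.1% of all tested genes), and 0 passed in edgeR's main test, with 5 at an unadjusted p under 0.05 and 1 called by DESeq2. The fit with the library set called Chrna1 and Chrnd as higher and Sema3a as lower. Among them Chrna1, the alpha subunit of the muscle acetylcholine receptor, went from 7.58 and 9.99 CPM to 10.4 and 10.4, 12.7 and 12.1, and 15.3 and 23.2 CPM. Its log2 fold change of 1.13 did not pass (SE 0.22, adjusted p = 0.128, edgeR), and did once the library set was a term (1.23, adjusted p = 0.00946, edgeR). The delta subunit gene Chrnd was at 1.38 and 0.909 CPM and then 1.84 and 3.80 CPM. Lrp4, the receptor through which nerve-derived agrin acts, was at 22.5 and 25.7 CPM and then 36.9 and 35.7 CPM. None of these 3 overlapped between the ages. The upstream 250 bases of Chrna1, a gene in both lists, are shown with CAGCTG, a form of the E-box that myogenic factors bind, in capitals. Other forms of the E-box were neither searched nor marked. The bases are from RefSeq on GRCm38.p6, chr2:73580339-73580588, minus strand.
Chrna1: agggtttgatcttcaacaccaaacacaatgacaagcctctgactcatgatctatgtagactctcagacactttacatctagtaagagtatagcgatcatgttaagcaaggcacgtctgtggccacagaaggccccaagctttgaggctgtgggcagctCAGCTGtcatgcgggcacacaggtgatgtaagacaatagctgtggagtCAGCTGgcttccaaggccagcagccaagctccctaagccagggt
CAGCTG reads the same on both strands. It was present in the promoter windows, 250 bases before to 50 after a start, of 7 of 19 denervation genes and 5 of 14 synapse genes with an entry, and of 18.3% of all genes in the table.

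Of 18 regeneration genes 12 were positive and 0 passed in edgeR's main test, with 5 at an unadjusted p under 0.05 and 1 called by DESeq2. The fit with the library set called 3 as higher (Mymk, Ncam1 and Tnnt2) and Mstn as lower, though the log2 fold change of Mstn in the main test, -0.39, was 0.12 without replicate 2 of 30 months. Embryonic myosin Myh3 was at 9.23 and 11.5 CPM and then 19.8 and 56.6 CPM, most of it in replicate 2 of 30 months. Ncam1, an adhesion molecule of developing and denervated fibres, was at 7.15 and 7.62 CPM and then 8.96 and 13.9 CPM. Of 21 sarcomere genes 17 were positive. Their median was 0.41, with 0 called in edgeR's main test, 6 at an unadjusted p under 0.05 and 3 called by DESeq2, and Actn2 and Xirp1 passed in the fit with the library set. Myom3, the M-band protein of slow and intermediate fibres, was at 64.2 and 51.6 CPM and then 106 and 182 CPM. Ankrd1, a stretch-responsive titin ligand, was at 6.76 and 4.41 CPM and then 11.3 and 35.9 CPM. Actn2, the alpha-actinin of all fibres, was at 675 and 632 CPM and then 867 and 1540 CPM, while Flnc, a Z disc filamin, was at 833 and 867.5 CPM and then 1368 and 1234 CPM. Sarcolipin, Sln, an inhibitor of the calcium pump, spread most, from 1.17 and 1.33 CPM to 12.2 and 51.1 CPM, and with that spread did not pass (4.66, SE 0.80, adjusted p = 0.140, edgeR). Mrln, another such inhibitor, was lower, at 47.4 and 53.2 CPM and then 35.8 and 25.8 CPM. Of 14 intermediate filament genes 13 were positive and 8 did not overlap on the higher side (21.1% of all tested genes), with a median of 0.48. Krt18, also in the denervation list, rose. Nes, an intermediate filament of immature and synaptic fibre regions, was at 35.1 and 32.4 CPM and then 49.2 and 70.3 CPM. Sln, Mrln and Nes did not overlap between ages.

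**Figure D4:**
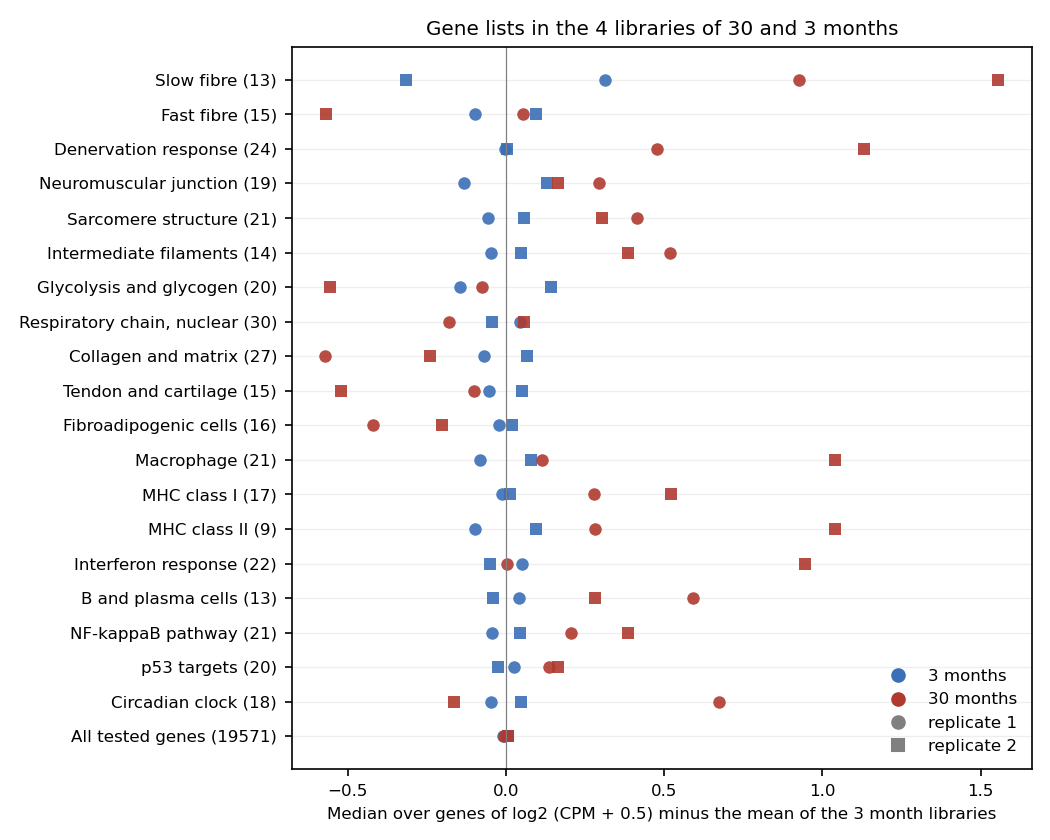
Median over each list's tested genes of log2 CPM plus 0.5, as the difference from the mean of the 3 month libraries, for the 2 libraries of 3 months (blue) and the 2 of 30 months (red), with the number of genes in brackets. Slow fibre and denervation genes are higher in both old libraries, macrophage and interferon genes mainly in replicate 2 (1.04 and 0.94), and collagen genes are lower in both (-0.57 and -0.24).

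In the NF-kappaB pathway, which runs from cytokine receptors to inflammatory genes, 1 of 21 tested genes passed and 19 were positive, with a median of 0.31. Nfkb2, the p100 precursor of the non-canonical branch, was at 8.38 and 9.01 CPM at 3 months and then 24.6 and 20.9 CPM at 30 months, and rose by 1.39 (SE 0.18, edgeR adjusted p 0.0302). It passed in 5 of the 8 fits that leave out a library, and overlaps Psd. Its partner Relb was at 6.89 and 6.56 CPM and then 16.6 and 10.6 CPM. The inhibitor gene Nfkbie was at 0.605 and 0.705 CPM and then 2.33 and 2.07 CPM, and Bcl3, a nuclear co-regulator, at 0.735 and 0.946 CPM and then 1.69 and 1.43 CPM. These 3 did not overlap and missed the threshold, Nfkbie closely (adjusted p = 0.0567, edgeR). Nfkbie and Relb passed once the library set was a term. Nfkb2 carried 2 matches to the kappaB motif near its annotated starts, shown in capitals with their flanks from RefSeq on GRCm38.p6, at chr19:46304688-46304717 and chr19:46305695-46305724, plus strand.
Nfkb2 first start: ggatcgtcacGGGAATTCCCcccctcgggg
Nfkb2 later start: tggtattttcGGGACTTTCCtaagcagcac
Searched on both strands as GGGA, any base and TTTCC, or as GGGAA, any base and TCCC, the motif was in the promoter windows of 4 of 17 genes of the pathway with an entry (Nfkb2, Rel, Nfkbia and Bcl3), of 1 of 16 called genes with an entry, and of 0.873% of all genes in the table.

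Eda2r, a p53-induced receptor that belongs with those for tumour necrosis factor and signals through NF-kappaB, was at 21.5 and 19.1 CPM at 3 months and then 73.9 and 54.0 CPM at 30 months. It rose by 1.65 (SE 0.23, edgeR adjusted p 0.0387), and 93.9% of that had been reached at 24 months. Plk2, a kinase induced by stress and p53, was at 7.48 and 6.67 CPM and then 14.2 and 14.5 CPM, a rise of 1.02 (SE 0.15, edgeR adjusted p 0.0473). Neither Plk2 nor Marveld2 passed in any fit that leaves out a library. Eda2r and Plk2 were the 2 of 20 p53 targets to pass, 13 were positive, and the list median was 0.14. Gadd45a, a growth arrest gene, was at 14.9 and 14.2 CPM and then 31.5 and 41.9 CPM, and did not pass (1.34, SE 0.27, adjusted p = 0.146, edgeR). In the tumour necrosis factor receptor list 1 of 14 passed, Eda2r, and 9 were positive. Tnfrsf23, a decoy receptor, was at 1.84 and 2.48 CPM and then 5.25 and 5.43 CPM. Ngfr, the p75 neurotrophin receptor, which Schwann cells raise after nerve injury, was at 0.583 and 0.445 CPM and then 1.36 and 2.65 CPM. Both lay apart between ages and passed once the library set was a term.

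Immune lists were higher in old muscle, unequally between its libraries. Of 21 macrophage markers 20 were positive and 13 did not overlap (21.1% of all tested genes), with a median of 0.67. In edgeR's main test 0 passed, with 7 at an unadjusted p under 0.05 (8.52% of all tested genes) and 2 called by DESeq2. Once the library set was a term 14 passed (2.13% of all tested genes). The median difference from 3 months was 0.11 in replicate 1 of 30 months and 1.04 in replicate 2, and all 21 genes were higher in replicate 2. The summed macrophage markers were at 239 and 272 CPM at 3 months, 163 to 275 CPM at 12 and 24 months, then 263 and 477 CPM at 30 months, so replicate 1 of 30 months lay within the range of the younger libraries. Lyz2, lysozyme, was at 52.2 and 63.2 CPM and then 64.4 and 138 CPM. Mpeg1, perforin-2 of phagocytes, was at 5.25 and 6.51 CPM and then 9.40 and 22.1 CPM, and passed in the fit with the library set (1.90, SE 0.16, adjusted p = 0.000223, edgeR). That fit sets replicate 2 of 30 months beside the 3 month libraries, and without that library it called 112 genes in place of 416.

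Genes of antigen presentation lay higher, more so in replicate 2 of 30 months. Of 9 MHC class II genes 8 were positive and 7 did not overlap (21.1% of all tested genes), with a median of 0.80. Once the library set was a term 5 passed (2.13% of all tested genes). The class II median difference from 3 months was 0.28 in replicate 1 of 30 months and 1.04 in replicate 2, and all 9 were higher in replicate 2. H2-Ab1, a chain of the class II molecule, was at 16.8 and 20.3 CPM and then 30.1 and 47.2 CPM. H2-Aa was at 17.5 and 20.1 CPM and then 28.1 and 47.7 CPM, H2-Eb1 at 15.2 and 18.4 CPM and then 29.2 and 45.0 CPM, and the invariant chain gene Cd74 at 32.5 and 45.5 CPM and then 60.8 and 96.2 CPM. Replicate 1 of 24 months, at 30.3 CPM for H2-Ab1, was as high as replicate 1 of 30 months. Of 17 class I genes 16 were positive and 14 did not overlap, with a median of 0.46. H2-Q6 was at 7.48 and 7.32 CPM and then 11.1 and 12.9 CPM, and the peptide transporter gene Tap1 at 4.58 and 4.91 CPM and then 6.44 and 8.16 CPM. In edgeR's main test 0 genes of either list passed, with 4 of class II and 7 of class I at an unadjusted p under 0.05, and DESeq2 called 0.

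Interferon-induced genes, all 22 of them, lay on the positive side with a median log2 fold change of 0.69, yet 9 did not overlap (21.1% of all tested genes) and 0 passed in either edgeR fit, with 7 at an unadjusted p under 0.05 and 1 called by DESeq2. Here the median difference was 0.003 in replicate 1 of 30 months and 0.94 in replicate 2. Irf7, a master regulator of the response, was at 2.29 and 2.71 CPM and then 3.25 and 12.6 CPM, and Ifit1 at 1.81 and 1.67 CPM and then 2.09 and 6.86 CPM. Zbp1, a sensor of left-handed nucleic acid, was at 0.454 and 0.519 CPM and then 0.725 and 1.96 CPM. Of 21 cytokine and chemokine genes 19 were positive and 12 did not overlap (21.1% of all tested genes), with a median of 0.51, and DESeq2 called 2. Their median difference was 0.42 in replicate 1 of 30 months and 0.52 in replicate 2. Ccl7 was at 0.173 and 0.241 CPM and then 0.835 and 0.996 CPM, Ccl8 at 0.475 and 0.890 CPM and then 2.20 and 5.73 CPM, and Cxcl10 at 0.259 and 0.389 CPM and then 2.46 and 0.940 CPM. All 3, which draw monocytes or lymphocytes into tissue, passed once the library set was a term and not in the main test. Cxcl13, a B cell attractant, was at 0.281 and 0.556 CPM and then 1.098 and 7.42 CPM. Ccl2 was at 0.497 and 0.278 CPM and then 0.835 and 1.71 CPM, and Mmp12, the macrophage elastase, at 0.0648 and 0.111 CPM and then 0.308 and 2.09 CPM.

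Of 17 complement genes 14 were positive and 7 did not overlap (21.1% of all tested genes), with a median of 0.29 and 0 called in edgeR's main test or DESeq2, 2 of them at an unadjusted p under 0.05. The fit with the library set called 5, C1qa, C1qb, C1qc, C4b and C3ar1 (2.13% of all tested genes). The median difference was 0.06 in replicate 1 of 30 months and 0.49 in replicate 2. C4b was at 27.1 and 45.6 CPM and then 50.0 and 94.2 CPM, the anaphylatoxin receptor gene C3ar1 at 2.27 and 2.93 CPM and then 3.36 and 7.07 CPM, and C1qb at 13.0 and 14.6 CPM and then 14.9 and 28.8 CPM. B and plasma cell genes were the immune list with a call. All 13 tested members were positive, 10 did not overlap (21.1% of all tested genes), the median was 1.08 and Ighg2c rose. Igkc, the kappa light chain constant region, was at 0.367 and 0.278 CPM at 3 months, 2.28 to 13.5 CPM at 12 and 24 months, then 12.3 and 10.1 CPM at 30 months, with an adjusted p of 0.0605 in edgeR. Ighm was at 43.7 and 49.5 CPM and then 98.8 and 64.7 CPM. In contrast to macrophage genes, the B and plasma list was not higher in replicate 2, with medians of 0.59 and 0.28.

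**Figure D5:**
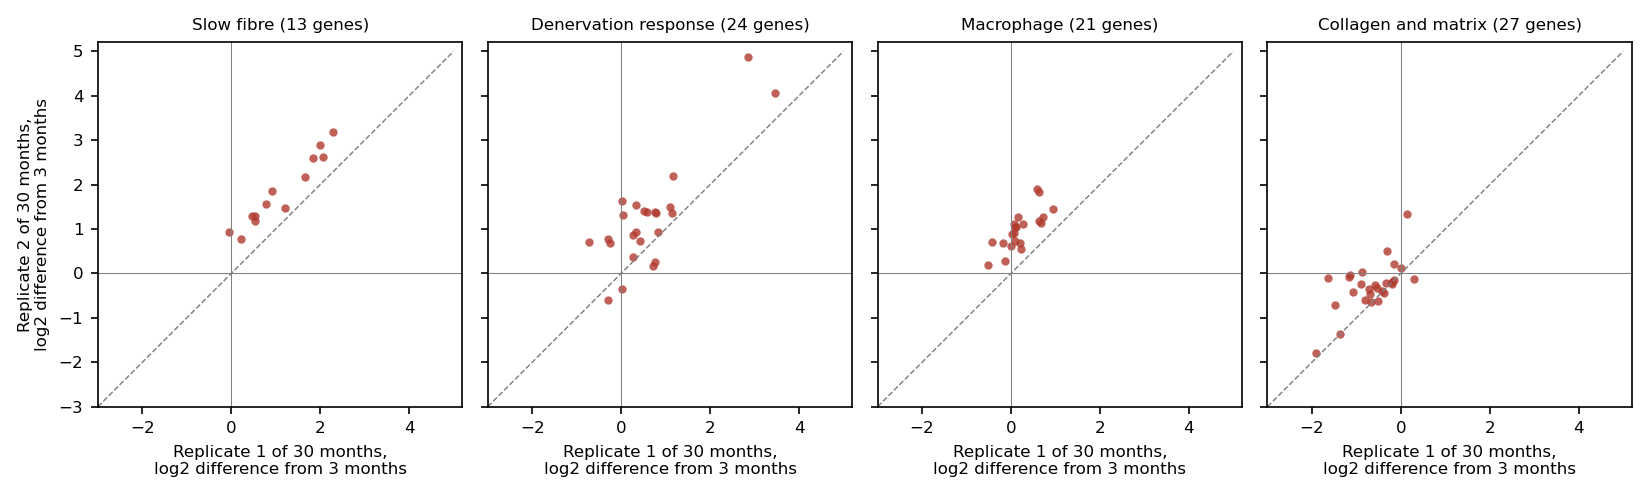
Difference in log2 CPM plus 0.5 from the mean of the 3 month libraries for each gene of 4 lists, replicate 1 of 30 months on the horizontal and replicate 2 on the vertical axis, with a dashed line of equality. All 13 slow fibre and all 21 macrophage genes lie above the line, and 23 of 27 collagen and matrix genes do.

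Collagen genes lay lower. Of 27 collagen and matrix genes 22 were negative, 21 did not overlap on the lower side against 20.2% of all tested genes, and the median log2 fold change was -0.46, yet 0 passed in edgeR's main test, with 5 at an unadjusted p under 0.05 and 1 called by DESeq2. Col1a1, the main chain of type I collagen, was at 447 and 505 CPM at 3 months, 261 and 93.7 at 12, 119 and 44.1 at 24, and 126 and 138 CPM at 30 months. Its partner Col1a2 was at 446 and 503 CPM and then 183 and 184 CPM, Col5a1 at 68.8 and 85.2 CPM and then 48.1 and 49.0 CPM, and the collagen-binding Sparc at 168 and 181 CPM and then 99.8 and 116 CPM. The libraries of 12 and 24 months spread widely for these genes, and with that spread in the test Col1a1 stood at -1.85 on the log2 scale (SE 0.54, edgeR adjusted p 0.344). Once the library set was a term the list median was -0.18, and the single call was a gene that was higher, Postn. Fibroadipogenic markers were lower beside collagen, with a median of -0.28 over 16 genes and a summed level of 2080 and 2380 CPM at 3 months and then 1760 and 1790 CPM at 30 months. Their part in the matrix result was not tested. Tendon genes, 11 of 15 negative with a median of -0.30, included Fmod, a collagen-binding proteoglycan, at 184 and 222 CPM and then 103 and 93.7 CPM, while Cilp, a matrix protein of the cartilage layer, was at 51.1 and 63.1 CPM and then 89.3 and 118 CPM. In edgeR's main test 0 of either list passed, with 2 of each at an unadjusted p under 0.05 and 0 called by DESeq2. In the fit with the library set the fibroadipogenic median was -0.07, the tendon median was 0.01 with 8 of 15 positive, and Cilp passed as higher. Of 19 genes of matrix remodelling 10 were positive, with a median of 0.18. On the higher side 8 did not overlap (21.1% of all tested genes), and 4 on the lower (20.2%). In edgeR 0 passed in either fit, with 6 at an unadjusted p under 0.05 and 0 called by DESeq2. Among those lower was Adamts2, which trims procollagen, at 24.5 and 31.9 CPM and then 15.1 and 18.1 CPM.

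In metabolism, of 20 genes of glycolysis and glycogen use 16 were negative and 8 did not overlap on the lower side (20.2% of all tested genes). Their median was -0.28. Of them 0 were called in either edgeR fit or DESeq2, and 2 had an unadjusted p under 0.05 (8.52% of all tested genes). Pgk1 was at 616 and 725 CPM and then 483 and 410 CPM, Ldha at 2177 and 2642 CPM and then 1857 and 1407 CPM, and Phka1, a subunit of phosphorylase kinase, at 1043 and 1211 CPM and then 936.9 and 611.5 CPM. The list was lower mainly in replicate 2 of 30 months, with a median difference of -0.55 there and -0.07 in replicate 1. Nuclear genes of the respiratory chain had a median of -0.07 over 30 members with 0 called in edgeR or DESeq2 and 0 at an unadjusted p under 0.05, and all 30 were higher in replicate 2 of 30 months than in replicate 1. Fatty acid oxidation genes had a median of 0.09 with 0 called in either edgeR fit, and parted the old libraries. Their median difference was -0.14 in replicate 1 of 30 months, with 1 of 21 positive, and 0.29 in replicate 2, with 19 positive. Pdk4, which holds back glucose oxidation in fasting, was at 421 and 659 CPM and then 287 and 211 CPM, and did not pass (adjusted p = 0.255, edgeR). Of 13 lipogenesis genes 11 were negative and 2 did not overlap on the lower side, with a median of -0.33 and 0 called in edgeR's main test or DESeq2, with 0 at an unadjusted p under 0.05. Fasn, fatty acid synthase, was at 179 and 98.9 CPM and then 67.2 and 96.2 CPM, and Srebf1, its activator, at 58.2 and 66.6 CPM and then 51.2 and 34.3 CPM. Srebf1 passed as lower in the fit with the library set (-0.87, edgeR adjusted p 0.0306). The coactivator gene Ppargc1b was at 11.2 and 10.9 CPM and then 22.3 and 17.1 CPM, without overlap, and had an adjusted p of 0.207 in edgeR's main test and 0.0425 in the fit with the library set. Of 16 ubiquitin and atrophy genes 9 were positive and 0 passed in edgeR or DESeq2, with 1 at an unadjusted p under 0.05 (8.52% of all tested genes). The atrophy regulator Foxo1 was at 22.8 and 27.2 CPM and then 17.7 and 19.02 CPM.

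Further genes appeared once the library set was a term, and those with the largest fold changes at a mean log2 CPM of 2 or more were read out. Higher at 30 months was Rrad, a small GTPase that restrains calcium channels, at 4.49 and 4.10 CPM and then 16.0 and 44.0 CPM (3.12, SE 0.27, adjusted p = 0.00145, edgeR). Also higher were Cyfip2, Tnnt1, Mpeg1, Atp2a2, Myh7b and Runx1, given above, and genes of phagocytes and tissue remodelling. Of these, Lgals3, galectin-3, was at 2.87 and 3.80 CPM and then 5.18 and 13.6 CPM, Gpnmb, a glycoprotein of lysosome-rich macrophages, at 3.56 and 5.38 CPM and then 7.23 and 12.5 CPM, and Apod, a lipid carrier, at 31.6 and 33.1 CPM and then 54.15 and 100.5 CPM. Aif1l and Cd209f, the latter a lectin of resident macrophages, had log2 fold changes of 1.69 and 1.60. Replicate 2 was the higher old library for all of these but the main test called none of them.

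Lower in that fit were several enzymes and regulators. Dynlt1b, a dynein light chain gene with near copies, was at 11.2 and 10.9 CPM at 3 months and then 2.61 and 4.04 CPM, and was already at 2.18 to 4.77 CPM at 12 and 24 months. Nrep was at 81.3 and 77.3 CPM and then 38.9 and 20.3 CPM, and Mlf1 at 146 and 131 CPM and then 85.3 and 47.2 CPM. Jak2, the kinase of growth hormone and cytokine receptors, was at 84.0 and 92.6 CPM and then 58.8 and 36.4 CPM. Gpt2, mitochondrial alanine aminotransferase, was at 267.5 and 335 CPM and then 217 and 130.0 CPM, Pla2g7 at 59.9 and 69.6 CPM and then 45.5 and 24.7 CPM, and the corepressor gene Hr at 50.6 and 65.7 CPM and then 48.0 and 20.02 CPM. Sema3a, a repellent cue for axons, was at 5.32 and 6.47 CPM and then 4.75 and 1.84 CPM. For the last 7 of these genes replicate 2 was the lower old library, and for Hr replicate 1 of 30 months lay close to the young level.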

How the data were processed

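Total RNA of frozen gastrocnemius was sequenced. The authors deposited raw, whole-number read counts for each gene. The submitters' processing notes name the builds GRCm38 and mm10 and, as tools, STAR 2.5.2b, Trimmomatic 0.36, Subread 1.5.2 and featureCounts. No source used here states the strand setting or the handling of multi-mapping reads. GENCODE M21 names matched 49056 of 49315 identifiers.

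Counts were analysed with edgeR 4.0.16 in R 4.3.3. The filterByExpr step kept 19571 genes, TMM scaled the libraries, and a robust quasi-likelihood model of the 4 ages over 8 libraries (4 residual degrees of freedom) gave the contrast, adjusted by Benjamini-Hochberg. SE was taken as the log2 fold change over the square root of F. The library set (summed kidney genes above 1 CPM) left 3 degrees of freedom.

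Members and the 64 gene lists were chosen with earlier results of these data known. Named were all called genes, the 12 higher and 12 lower added by the set term with the largest change, up to 4 members of a list with the lowest p (up to 3 of the highest level for cell types), and the substrain list, and a gene so named is not reported here. Other names, such as Cpne3, Myh4 and Postn, were chosen after their values were seen. The procedure was tested on simulated counts. Alternatives included DESeq2 1.42.0 and limma 3.58.1 (voom).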

Additional observations from a re-analysis of the deposited data

How the results depend on the processing

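The count of 29 genes was 378 with no low count filter, 9 with a stricter one, 214 by DESeq2, 13 with a minimum change of 1.5 times, 13 with the replicate block, 416 in the fit with the library set and 6 without mitochondrial, copy and satellite-like genes. Leaving out 1 library gave 10 to 52, with 10 without replicate 1 and 10 without replicate 2 of 3 months, 18 when either 24 month library was dropped and 52 when replicate 1 of 30 months was. It stayed within 1.5 times with RLE size factors (29), library totals alone (25), limma-voom (23) and only the 4 libraries compared (33). Of the 29 genes, 7 passed in all 8 fits that leave out a library, namely Gm28438, Gm10800, Gm15446, Cpne2, Krt18, mt-Tg and mt-Nd3. By contrast, Slc6a17, Myh7 and Ighg2c passed in 4 of those 8 fits, and Eda2r and Prkcz in 3. Gm7609, Tmem132b, Kl, Ttc9 and Slc38a4 passed in 1. Same-numbered libraries of 3 and 30 months did not deviate together (r = -0.293 across genes). That is 1 correlation over genes that are not independent, so it cannot show whether the numbers pair libraries. The crossed replicate block, added after seeing the data, called 229. The count of 416 was 112 to 584 when 1 library was left out, with 112 without replicate 2 of 30 months and 143 and 139 without replicates 1 and 2 of 3 months. It was 572 with the 3 month libraries placed in the other set. Of 145 named genes, 4 changed sign in some fit, Myh1 (-0.20 to 1.02 over the fits that leave out a library), Myh2 (-0.20 to 1.11), Ide (-0.031 to 0.67) and Mstn (-1.17 to 0.116). The single library left at an age is then taken to be as variable as the rest. Each age had 2 libraries, and genes under 1 CPM rest on few counts.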

Other observations

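Long noncoding RNAs of the imprinted cluster on chromosome 12, which are read from the maternal chromosome, were lower at 30 months. Rian was at 14.1 and 13.3 CPM at 3 months, 5.36 to 7.32 CPM at 12 and 24 months, and 5.87 and 7.16 CPM at 30 months. Its log2 fold change of -1.07 (SE 0.17, adjusted p = 0.0605, edgeR) passed in the fit with the library set (edgeR adjusted p 0.00946). Meg3 was at 12.3 and 15.8 CPM and then 7.97 and 6.88 CPM, and Mirg at 2.38 and 2.39 CPM and then 1.25 and 0.996 CPM. None of the 3 overlapped between 3 and 30 months, and all their 12 and 24 month libraries lay below both of 3 months. Small RNA genes overlap all 3, and strand was not stated. Of the 19 imprinted genes tested 9 were positive, the median was -0.09 and 0 passed in edgeR's main test, with 4 at an unadjusted p under 0.05 and 2 called by DESeq2.

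Of 13 polyamine genes 5 were positive and 0 passed in edgeR's main test, with 4 at an unadjusted p under 0.05 and 1 called by DESeq2. Amd1, which makes the aminopropyl donor for spermidine and spermine, was at 636 and 879 CPM at 3 months and then 461 and 152 CPM at 30 months. Its relative Amd2 was at 3.93 and 4.21 CPM and then 2.02 and 0.545 CPM, and Smox, spermine oxidase, at 272 and 567 CPM and then 214 and 76.3 CPM. The 3 genes passed as lower with the library set as a term, with log2 fold changes of -1.98, -2.32 and -2.26. Replicate 2 of 30 months was the lowest of the 8 libraries for each of the 3. Clock genes parted the old libraries. Per3 was at 14.9 and 16.8 CPM at 3 months and then 52.5 and 25.4 CPM at 30 months, and Cry2 at 18.5 and 21.9 CPM and then 65.0 and 28.5 CPM, while Nfil3, a repressor in antiphase, was at 36.6 and 37.0 CPM and then 10.7 and 19.4 CPM. The 18 clock genes, 0 of them called in edgeR's main test, 6 at an unadjusted p under 0.05 and 1 called by DESeq2, had a median difference of 0.67 in replicate 1 and -0.16 in replicate 2 of 30 months. Of early response genes, Junb was at 5.08 and 6.60 CPM and then 16.7 and 16.3 CPM, and Klf4 at 21.5 and 20.9 CPM and then 11.4 and 16.2 CPM. Kcnn3, a potassium channel gene of immature fibres, was at 2.48 and 2.91 CPM and then 4.37 and 7.26 CPM. The small heat shock gene Hspb7 was at 122 and 119 CPM and then 191 and 343 CPM. Junb, Klf4, Kcnn3 and Hspb7 did not pass in edgeR's main test (adjusted p = 0.132, 0.309, 0.205 and 0.212). In the fit with the library set Junb, Kcnn3 and Hspb7 passed as higher, and Klf4 did not pass.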
